A study of Mus musculus with 16 samples.

Results

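The effect of anti-CD40 on CD4+ T cells that met their antigen throughout the experiment was read from 6 of the 16 arrays of the series, 3 with anti-CD40 and 3 with PBS. These are the arrays whose titles combine the long doxycycline schedule with FGK or with PBS. The donor T cells carried the AND T cell receptor transgenes and the CD90.1 marker. The recipients were B10.BR mice aged 6 to 8 weeks that carried the transgenes Ii-rTA+ and TIM+. Both groups of 3 received doxycycline from the day before transfer to the third day after it. They differed in the injection given on the day before transfer, which was FGK45.5, a stimulatory antibody against CD40, or PBS. At 60 h the CD4+CD90.1+ cells were sorted by flow cytometry from subcutaneous lymph nodes, and their RNA was amplified in 2 rounds. In the transient regime, with 2 arrays with anti-CD40 and 3 with PBS, the same kind of recipients had doxycycline only up to the day of transfer. In the no-antigen regime, also with 2 and 3 arrays, recipients were Ii-rTA- and TIM+, so that they differed in genotype too. The labels do not say that replicates came from separate mice or how many mice were pooled, and p-values here are set against the spread between these samples, whatever its source.

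CD40 is a receptor of the TNF receptor family on dendritic cells, B cells and macrophages. Its ligand is carried by activated helper T cells, and engaging it makes dendritic cells raise costimulatory molecules and cytokines. An agonist antibody such as FGK45.5 stands in for that help. The AND receptor binds a moth cytochrome c peptide held by an MHC class II molecule. The Ii-rTA transgene puts the doxycycline-responsive activator under the promoter of the invariant chain, which is active in antigen-presenting cells, and TIM carries the peptide. The comparison asks what anti-CD40 given to the recipients adds to the T cells' transcripts when the peptide stays present.

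Under persistent antigen no gene passed an adjusted p below 0.05 for anti-CD40 against PBS, a test that can miss small changes. Of 18194 genes, 0 passed in limma without a block for the replicate number (0% called), and 0 passed with that block (0% called). The smallest adjusted p was 1 without the block and 0.531 with it. At an unadjusted p below 0.05 there were 110 genes (0.605%) without the block and 485 (2.67%) with it, 310 higher (1.7%) and 175 lower (0.962%). The differences were small: the median size over all genes was 0.10 in log2(intensity + 1), the scale of every difference below. Only 2 genes, Plagl1 and Dsp, differed by more than 1, and both means were higher with anti-CD40. The 95% interval of the difference lay within -1 to 1 for 15323 genes (84.2%) without the block and for 18044 (99.2%) with it.

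Replicate number separated the 6 arrays more than anti-CD40 did. Of the sum of squares over all genes, 81.3% lay between replicate numbers, 6.48% between anti-CD40 and PBS, and 12.2% was left. Both replicate 2 arrays stood apart on the first principal component, which held 69.8% of the variance, at 44.9 and 56.9 against -30.6 to -18.4 for the other 4. Within-replicate differences between anti-CD40 and PBS correlated across genes at -0.09 for replicates 1 and 2, -0.13 for 1 and 3 and 0.18 for 2 and 3. Across genes such a correlation is a description, since genes are not independent replicates. Sex-linked transcripts also differed by replicate number. Eif2s3y, a Y-linked gene, was at 8.86 and 8.88 in the pair of replicate 1 arrays and at 2.72 to 3.09 in the other 4, and Xist, which female cells express, was at 5.71 and 5.93 against 9.92 to 10.64. In replicate 1 Xist was still above the median probe set (4.37), so whether these cells were of a single sex is not settled. Each replicate number held both treatments, so sex was balanced between them, and its part in the differences between replicates was not tested. These transcripts set replicate 1 apart, whereas the first principal component set replicate 2 apart. Each replicate number of the 6 arrays also fell in its own run of consecutive array numbers. Replicate number and run cannot be told apart here, and the part of the run was not tested.

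The sorted cells read as T cells in both groups. Levels of Cd3e, a chain of the T cell receptor complex, were 8.35 to 9.27 with PBS and 7.90 to 9.23 with anti-CD40, in log2(intensity + 1). Cd4 was at 7.16 to 7.59 and 6.98 to 7.67. The summed linear intensity of 15 T cell identity genes was 13752 to 16042 with PBS and 13455 to 16613 with anti-CD40. For 17 B cell markers it was 668 to 881 and 669 to 931, and for 24 dendritic cell and macrophage markers 820 to 861 and 822 to 957. The 14 NK and CD8 T cell genes summed to 1567 to 2419 and 1521 to 2783, 9 plasma cell genes to 970 to 2052 and 1409 to 2229. Smaller sums were those of 11 granulocyte genes (187 to 263 and 200 to 255), 5 erythrocyte genes (94.0 to 110 and 92.0 to 116) and 15 stromal and endothelial genes (267 to 291 and 263 to 270). The 2 groups overlapped in every one of these 8 sums. By gene, the plasma cell list had a median difference of 0.22 (0.12, 0.27 and 0.22 in replicates 1 to 3). Of its 9 means 8 were above 0, against 55.9% of all genes. In all 3 replicate numbers 5 were higher (13.7% of all genes were), and 1 was higher without overlap (2.14% of all genes). Of the 9, 0 passed the test. Prdm1, Irf4 and Xbp1 stand both in this list and in that of effector and memory transcription factors. The other 7 lists had medians of -0.05 to 0.06. The defining B cell gene Cd79a was at 3.26 to 3.48 with PBS and 3.59 to 3.64 with anti-CD40, below the median probe set of the arrays (4.37) in both, although the groups did not overlap. Ms4a1, which encodes CD20, was at 5.05 to 6.92 and 5.39 to 6.83, and Lyz2, the lysozyme of macrophages, at 5.24 to 6.92 and 6.07 to 6.74. The part of other cells in the results below was not tested.

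The effector genes that define a helper T cell response were bright with PBS and did not pass the test. Gzmb encodes granzyme B, a protease of cytotoxic granules. With PBS it was at 9.64, 8.05 and 10.07 in replicates 1 to 3, and with anti-CD40 at 9.32, 7.72 and 9.29. The anti-CD40 array was the dimmer one within each replicate number, while the groups overlapped, and the difference was -0.48 ± 0.29 (SE with the block, 95% interval -1.08 to 0.13). Il21 encodes the cytokine interleukin 21, which acts on B cells and T cells. It was at 9.20, 7.44 and 9.34 with PBS and at 9.64, 8.35 and 9.69 with anti-CD40. It was the brighter with anti-CD40 in all 3 replicate numbers, by 0.57 ± 0.34 on average (interval -0.16 to 1.29). Ifng, the gene of interferon gamma, was at 8.72, 6.02 and 8.91 with PBS and at 8.48, 6.496 and 8.99 with anti-CD40. Replicate 2 was the dimmest in both groups, and the difference was 0.10 (interval -0.71 to 0.91). Tbx21, the Th1 master regulator T-bet, was at 7.71, 6.34 and 8.07 with PBS and at 7.63, 6.56 and 8.36 with anti-CD40, a difference of 0.14 (interval -0.43 to 0.72). Prdm1, the gene of Blimp-1, was at 7.65, 6.26 and 7.04 with PBS and at 7.69, 7.66 and 6.81 with anti-CD40. Its difference of 0.41 (interval -0.37 to 1.18) came from replicate 2, where it was 1.40, against 0.05 and -0.22 in replicates 1 and 3.

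Among costimulatory and inhibitory receptors, Tnfrsf4 and Pdcd1 had the smallest unadjusted p of the 30 measured T cell genes of a list drawn up for this comparison, and neither passed after adjustment. Tnfrsf4 encodes OX40, a costimulatory receptor of activated T cells. It was at 6.17, 6.77 and 6.27 with PBS and at 6.25, 8.33 and 7.29 with anti-CD40. Replicate 1 hardly differed (0.07) whereas replicates 2 and 3 differed by 1.55 and 1.03, and the groups overlapped. The mean difference of 0.88 ± 0.27 (interval 0.31 to 1.46) had an adjusted p of 1 in limma with the block, and was 0.46 without the replicate 2 anti-CD40 array. Pdcd1 encodes the inhibitory receptor PD-1. It was at 6.20, 6.04 and 6.27 with PBS and at 6.57, 6.37 and 6.97 with anti-CD40. All 3 anti-CD40 arrays lay above all 3 PBS arrays, which held for 389 of all genes (2.14%), and the difference was 0.46 ± 0.17 (interval 0.10 to 0.82; adjusted p = 1 with the block in limma). Of the 30 T cell genes Pdcd1 was the only one whose groups did not overlap.

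The other T cell genes of the list differed less. All 30 had differences between -0.48 and 0.88, and 28 of them were within 0.5 of 0. The mean was higher with anti-CD40 for 25 of the 30, against 55.9% of all genes. In 7 the array with anti-CD40 was higher within all 3 replicate numbers and in 2 lower, where all genes gave 13.7 and 9.58%. For 26 of the 30 the blocked interval lay within -1 to 1. Among genes of T cell receptor and CD28 signalling, Cd28, the main costimulatory receptor, differed by 0.02 (-0.35 to 0.37), Ctla4, its inhibitory counterpart, by 0.17 (-0.27 to 0.60) and Icos by 0.08 (-0.34 to 0.50). Nr4a1 and Egr2, which report recent receptor signalling, differed by 0.09 (-0.38 to 0.57) and 0.04 (-0.40 to 0.49). Cd40lg, the gene of the CD40 ligand, differed by 0.07 (-0.26 to 0.40). For Il2 the difference was 0.26 (-0.17 to 0.69), for Il2ra 0.07 (-0.27 to 0.41) and for Bcl6, the follicular helper regulator, -0.05 (-0.46 to 0.37). Another probe set of Il2ra, dimmer on average, gave 0.33. Il2, Il2ra and Cd40lg were dim, at 4.11 to 5.05, 4.79 to 5.32 and 4.59 to 5.31. The median probe set was at 4.37, and the scale shrinks differences of dim genes. The plot of the 30 differences with their intervals shows the persistent values beside those after transient antigen.

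**Figure D1:**
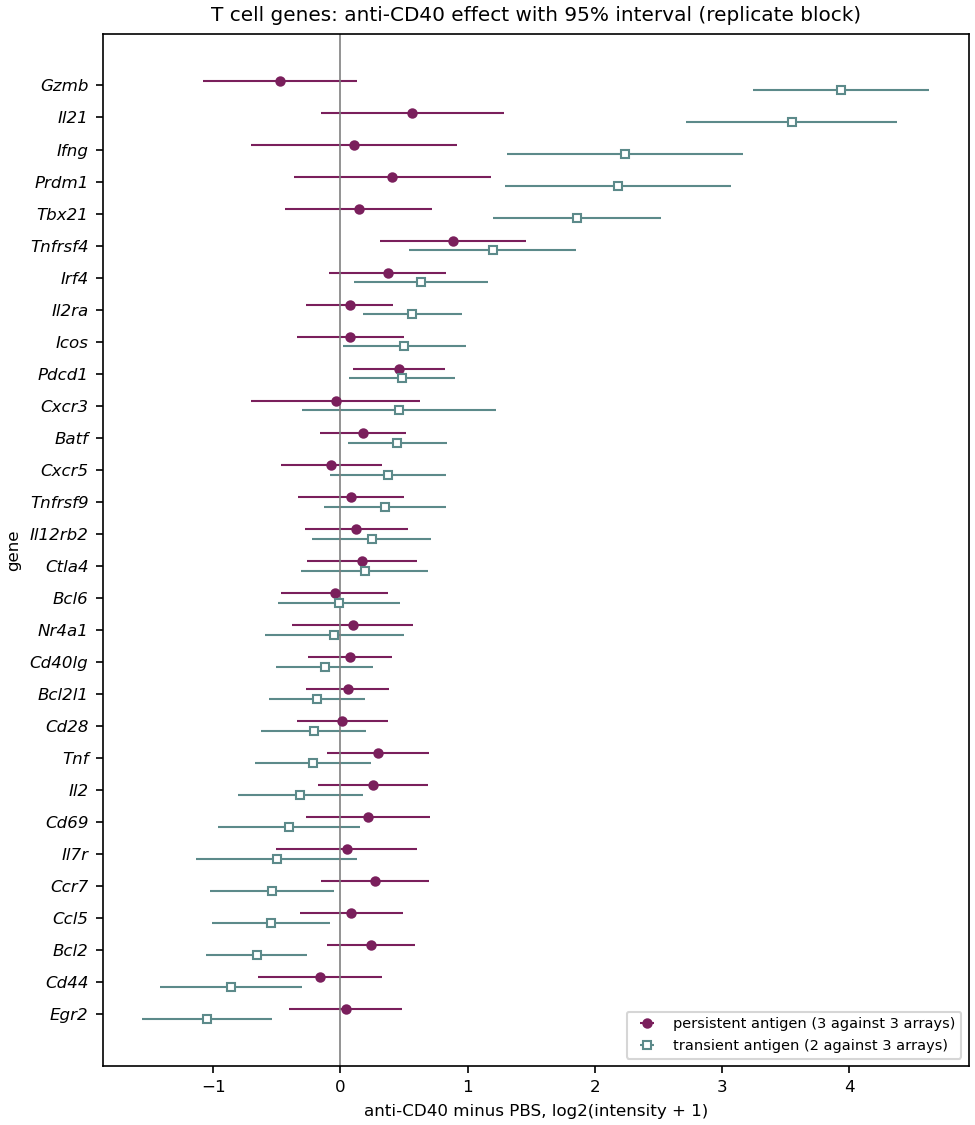
Difference between anti-CD40 and PBS in log2(intensity + 1) for 30 T cell genes (vertical axis) under persistent antigen (filled circles, 3 against 3 arrays) and after transient antigen (open squares, 2 against 3 arrays), with 95% intervals of the model with the replicate block. Under persistent antigen the points lie between -0.48 and 0.88, whereas after transient antigen Gzmb reached 3.93 and Il21 3.55.

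Plagl1 and Dsp had the smallest p with the block, and each rested on a probe set that others of the same gene did not all match. Plagl1 encodes a zinc finger transcription factor of an imprinted locus. It was at 4.65, 5.92 and 5.87 with PBS and at 5.85, 7.71 and 7.80 with anti-CD40. The anti-CD40 array was higher in each replicate number, by 1.20, 1.79 and 1.93, yet the groups overlapped, since replicate 1 was dimmer in both. The mean difference was 1.64 ± 0.32 (interval 0.97 to 2.31; adjusted p = 0.531 in limma with the block). Another pair of probe sets for Plagl1, both with a lower mean over the 16 arrays, differed by -0.12 and 0.13. Plagl1 was also the one gene to pass when only the 6 arrays were fitted with the block (adjusted p = 0.0464) or when the replicate 1 array with anti-CD40 was left out (2.08, adjusted p = 0.0342). In the other alternatives run for this gene the adjusted p lay between 0.140 and 1.

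Dsp encodes desmoplakin, a protein of desmosomes in epithelia and heart muscle. It was at 5.34, 4.02 and 6.07 with PBS and at 6.04, 6.41 and 7.12 with anti-CD40. The groups overlapped only through the replicate 1 array with anti-CD40. The difference was 1.38 ± 0.26 (interval 0.84 to 1.93; adjusted p = 0.531) and was 0.88 without replicate 2, in which it was 2.40. Its other probe sets differed by 1.06 and, for the dimmest, by -0.08.

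Lower means with anti-CD40 included P2rx7 and St6gal1. P2rx7, the ATP-gated channel that makes T cells sensitive to extracellular ATP and NAD, was at 7.10, 7.74 and 7.45 with PBS and at 6.55, 6.56 and 6.83 with anti-CD40. All anti-CD40 arrays lay below all PBS arrays, as for 245 of all genes (1.35%), with a difference of -0.79 ± 0.18 (interval -1.16 to -0.41; adjusted p = 1). A dimmer probe set of P2rx7 gave -0.86, and the dimmest -0.03. St6gal1, a sialyltransferase of the Golgi, was the brightest of the genes with the smallest p, at 11.72, 10.99 and 11.67 with PBS and at 11.51, 9.97 and 11.04 with anti-CD40. Its difference was -0.62 ± 0.17 (interval -0.98 to -0.26; adjusted p = 1), largest in replicate 2 (-1.02). The remaining genes among the 10 with the smallest p in either model, which were Lgals7, Stk35, Evc, Crtac1 and Prdm9 with higher means and Tmprss13, Rem2, Myl1, Dock3 and Rnase2a with lower ones, had adjusted p-values of 1 in limma. The largest of these differences were 0.78 for Lgals7 and -0.64 for Tmprss13. Their levels ran from 2.85 to 5.95 in log2(intensity + 1), against 4.37 for the median probe set. Of the 61 genes chosen by rule, 30 had several probe sets, and in 12 of these another probe set had the opposite sign. For St6gal1 the other, dimmer probe set kept the sign but differed by only -0.04.

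**Figure D2:**
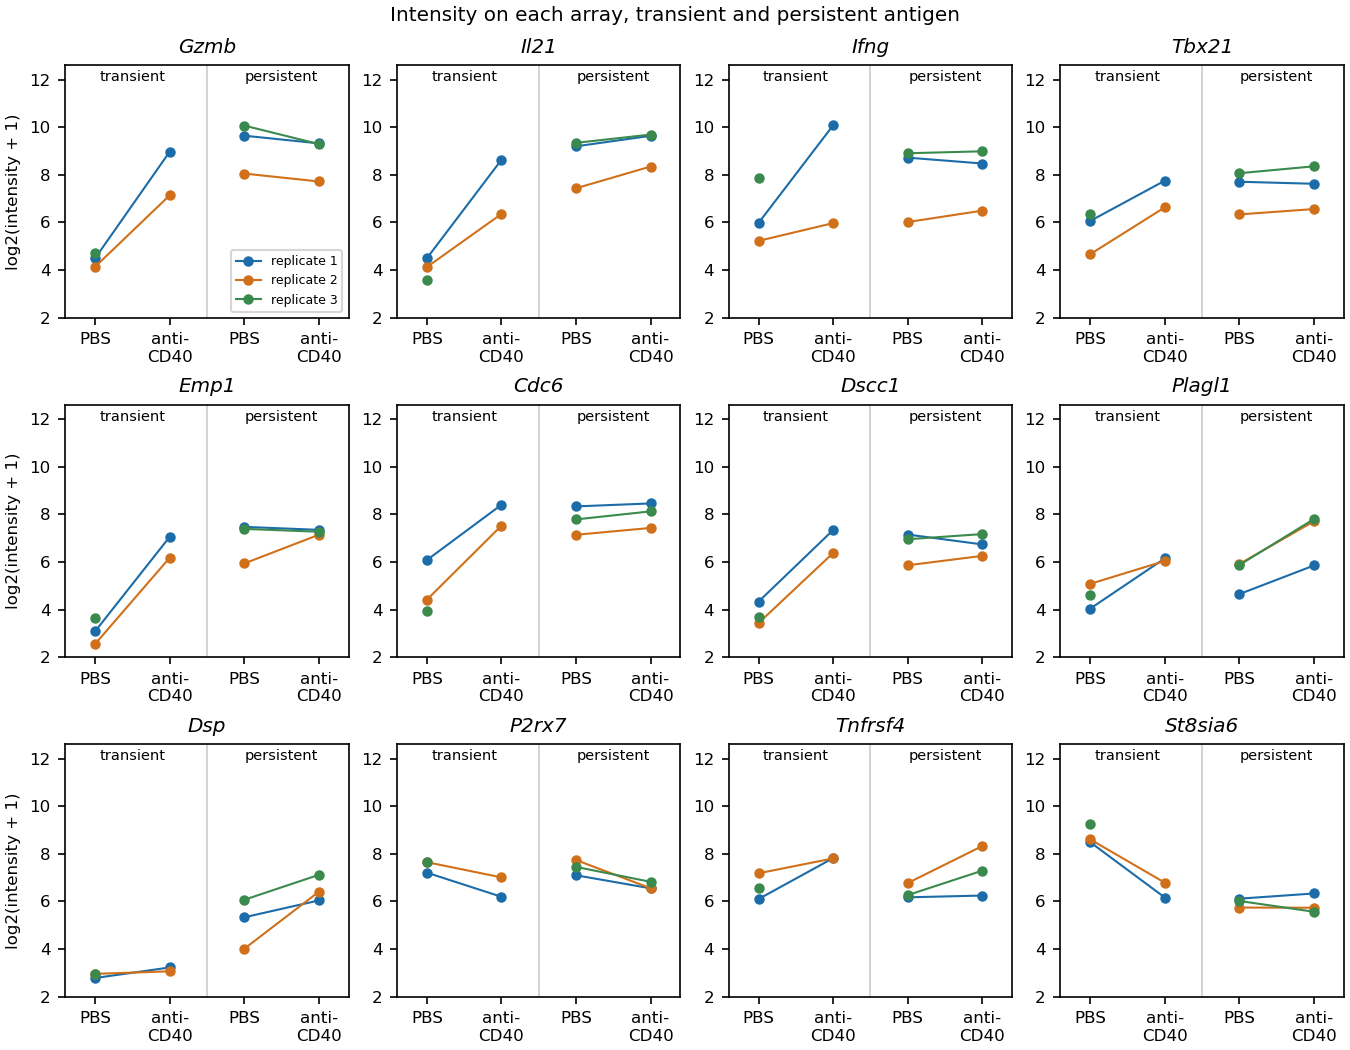
Level in log2(intensity + 1) of 12 genes on each array after transient antigen (left in each panel) and under persistent antigen (right), with PBS and with anti-CD40. Lines join arrays of the same replicate number, and transient antigen has no anti-CD40 array of replicate 3. Gzmb was at 4.15 to 4.71 with PBS after transient antigen and at 8.05 to 10.07 with PBS under persistent antigen.

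No gene list had a member past the threshold. The 28 lists of T cell programs held 565 measured genes, of which 0 passed with or without the block, 6 had an unadjusted p below 0.05 without it (0.605% of all genes did) and 41 (7.26%) with it (2.67% of all genes did). The medians of the 28 lists lay between -0.22 and 0.38, against 0.02 over all genes, and 14 were within 0.1 of 0. Median values below are for the mean over 3 replicates unless a replicate is named. Mean linear intensity was 88.8 on the replicate 2 array with PBS and 96.0 on that with anti-CD40. In replicates 1 and 3 it was 111 to 118, and its part in the medians was not tested. With cyclic loess, a normalization between arrays, ribosome biogenesis had a median of 0.31, chaperones 0.21 and glycolysis 0.19. DNA replication had 0.21, mitosis 0.01 and type I interferon-stimulated genes -0.26.

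Ribosome biogenesis and the chaperone list had the highest medians, carried by replicates 2 and 3. The ribosome biogenesis list, which covers nucleolar proteins and RNA polymerase I, had a median of 0.38, and 25 of 25 members had a mean above 0, from 0.06 for Polr1a to 0.65 for Gnl3. Within replicates 1, 2 and 3 its median was -0.05, 0.69 and 0.39, and it was 0.18 without replicate 2. Gnl3, the gene of nucleostemin, was at 7.90, 6.04 and 7.66 with PBS and at 7.86, 7.58 and 8.12 with anti-CD40. The replicate 2 array with PBS was the dimmest of the 6, and replicate 1 differed by -0.04. Ncl, which encodes nucleolin, was at 10.94, 9.69 and 9.88 with PBS and at 11.13, 10.84 and 10.09 with anti-CD40, a difference of 0.51 ± 0.21 that did not pass. Chaperones had a median of 0.27 (0.04, 0.61 and 0.20 in replicates 1 to 3), with 19 of 20 above 0. Hspa9, a mitochondrial chaperone, had the largest difference of this list, 0.67 ± 0.20. The other list of protein folding, that of the endoplasmic reticulum and the unfolded protein response, had a median of 0.12 with 20 of 26 above 0 (-0.01, 0.25 and 0.15).

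In the metabolic lists, too, replicate 1 had the lowest median. Glycolysis had a median of 0.24 over 18 genes, with -0.17, 0.51 and 0.31 in replicates 1 to 3. Its largest difference was that of Tpi1, triosephosphate isomerase, at 8.70, 7.79 and 8.51 with PBS and at 8.73, 9.03 and 9.28 with anti-CD40 (0.68 ± 0.26). All 3 anti-CD40 arrays of Tpi1 were brighter than the PBS arrays, although replicate 1 differed by only 0.02. Amino acid transport and one-carbon synthesis had a median of 0.18 with 21 of 22 above 0 (-0.05, 0.47 and 0.16), and Mthfd1, a folate enzyme, differed by 0.61. Cholesterol and fatty acid synthesis had a median of 0.19 (-0.07, 0.25 and 0.35), which was -0.0049 with array weights. Without replicate 2 the glycolysis median was 0.08, the amino acid median 0.04, the chaperone median 0.14 and the cholesterol median 0.11.

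Cell cycle genes had small differences. DNA replication, which includes the MCM helicase, GINS and the polymerases, had a median of 0.25 and 38 of 38 means above 0, from 0.03 for Chaf1b to 0.50 for Gins2, with none past the threshold. Within replicates 1 to 3 the medians were -0.04, 0.55 and 0.23, and 14 of the 38 were higher in all 3 (13.7% of all genes were). Without replicate 2 the list median was 0.08. Mitosis genes had a median of 0.07 (-0.12, 0.38 and -0.01), which was -0.09 without replicate 2, and 0 of 34 were higher in all 3 replicate numbers.

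Type I interferon-stimulated genes had the lowest median of the 28 lists. It was -0.22, and 30 of 33 members had a mean below 0, with -0.07, -0.50 and -0.25 in replicates 1 to 3 and -0.19 without replicate 2. None passed the test, and 15 were lower within all 3 replicate numbers (9.58% of all genes were). Rsad2, the antiviral enzyme viperin, was at 8.34, 7.39 and 8.86 with PBS and at 8.08, 6.16 and 7.94 with anti-CD40 (-0.80 ± 0.34). Mx1, an antiviral GTPase, was at 7.002, 6.35 and 6.80 with PBS and at 6.46, 5.45 and 5.93 with anti-CD40 (-0.77 ± 0.33). Both were dimmer with anti-CD40 in every replicate number while their groups overlapped. The sensor gene Ifih1 was the exception in size, at 0.41. Interferon gamma and antigen presentation genes had a median of 0.0032 over 22 members, between -0.30 and 0.15.

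Lists of T cell fate had medians from -0.19 to 0.12, and no member passed the test. Th1 effector genes had 0.09, cytotoxic granule genes -0.04, follicular helper genes -0.11, regulatory T cell genes 0.12, Th2 and Th17 genes 0.03, inhibitory receptors 0.09, and anergy and tolerance genes -0.02. The Th1 median was -0.14 with array weights and -0.01 without replicate 2. Naive and recirculating T cell genes had a median of -0.19, with 15 of 21 below 0 and -0.12 without replicate 2. Ahr, a ligand-activated transcription factor in the Th2 and Th17 list, had the largest difference of these lists, 0.94 ± 0.29, at 6.79, 6.07 and 6.46 with PBS and 6.97, 7.70 and 7.46 with anti-CD40. Its groups did not overlap, and replicate 1 differed by 0.18. Bhlhe40, a transcription factor that T cells use for cytokine production, differed by 0.78 (-0.13, 1.51 and 0.96 in replicates 1 to 3).

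**Figure D3:**
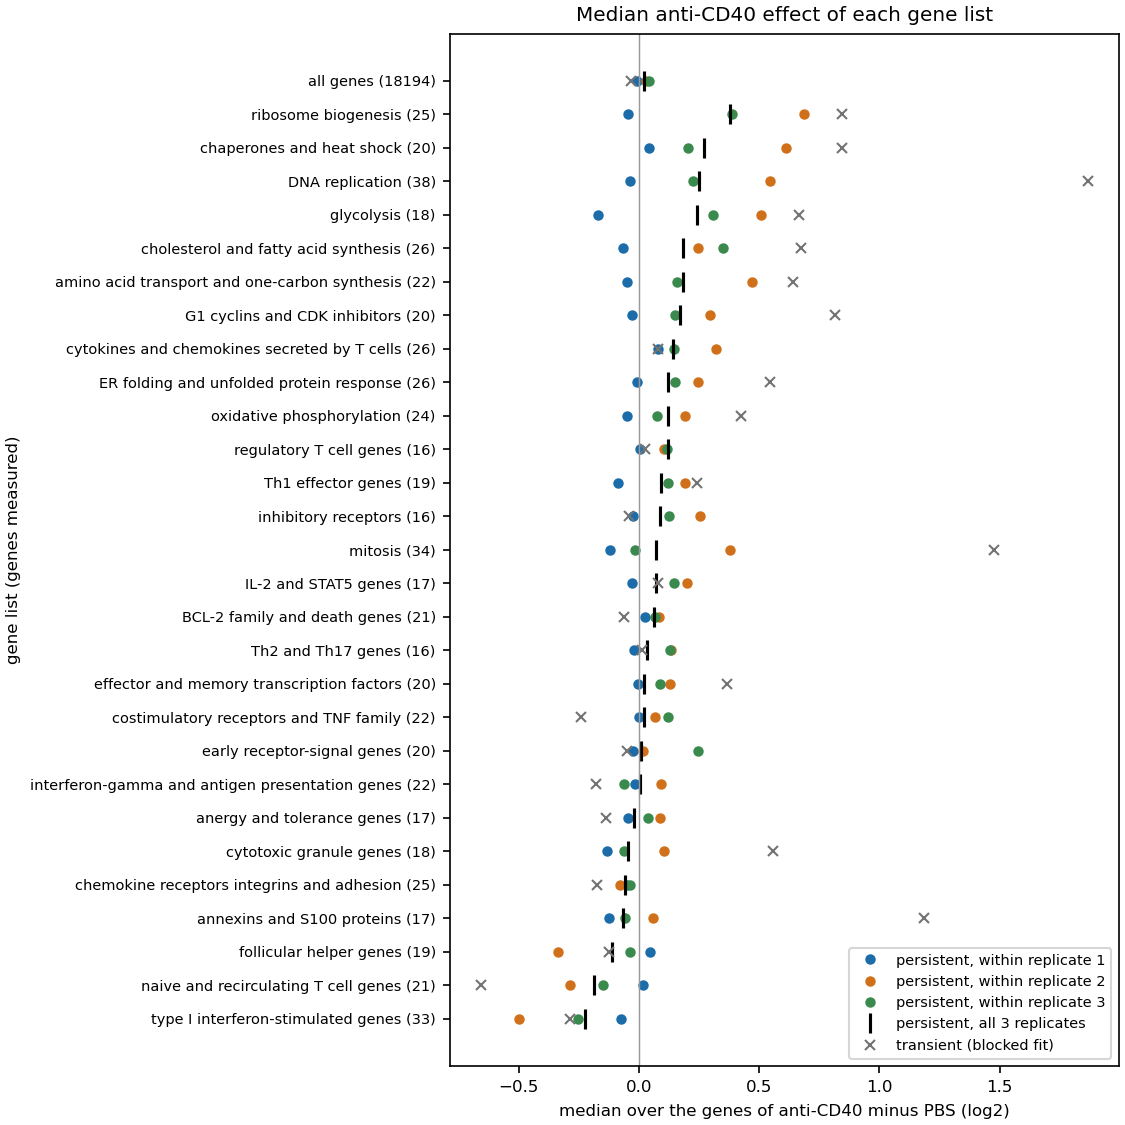
Median over the measured genes of each of 28 lists, and of all 18194 genes (top), of the difference between anti-CD40 and PBS in log2(intensity + 1). Circles are persistent antigen within each replicate number, the vertical bar is the mean over the 3, and the cross is transient antigen. DNA replication was at 0.25 under persistent antigen and at 1.87 after transient antigen.

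After transient antigen the same antibody changed 116 genes without the block (0.638%) and 1913 with it (10.5%), 1381 higher (7.59%) and 532 lower (2.92%). The 2 effects contrast different arrays, but with the block they are not fully separate. The replicate terms and the error are fitted to all groups, and transient anti-CD40 has no replicate 3. The block therefore moves the transient estimate, for Ifng from 1.67 to 2.24. The comparisons below use these blocked estimates. The 1381 genes that rose had a median persistent difference of 0.21, and 1233 of them (89.3%) had a persistent mean above 0, against 55.9% of all genes. Within replicates 1, 2 and 3 their persistent median was -0.07, 0.48 and 0.20, and without replicate 2 it was 0.07. The 532 genes that fell had a persistent median of -0.13 (-0.02, -0.28 and -0.11), and 430 had a mean below 0. The transient medians of the 2 sets were 0.996 and -0.86. Across all genes the effects of both regimes correlated at a Pearson r of 0.45 and a Spearman rho of 0.36, as a description. Within replicate 1 the r was -0.19 and within replicate 2 it was 0.39, so its sign was not shared by the replicates.

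The difference between the regimes was tested directly as persistent minus transient effect. Without the block 0 genes passed (0% called), 628 had an unadjusted p below 0.05 (3.45%) and the smallest adjusted p was 0.389. With the block 326 passed (1.79% called), of which 276 had the lower (1.52%) and 50 the higher effect (0.275%) under persistent antigen. Single arrays weighed on this count, which was 31 without the transient replicate 1 array with anti-CD40, 37 without persistent PBS replicate 3 and 48 without persistent anti-CD40 replicate 1. It was 137, 148 and 171 without persistent PBS 1, transient PBS 3 and transient PBS 2, 214 and 217 without persistent anti-CD40 3 and transient PBS 1, and 29 with replicates 1 and 2 alone. Across the 276 genes the median transient effect was 1.67 and the median persistent difference 0.16. For the 50 they were -1.29 and -0.01. Both sets were chosen by the gap between these 2 effects, so a gap between their medians follows from the choice.

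Among the genes named by rule, Gzmb and Dscc1 differed most clearly between the regimes. Gzmb was at 4.51, 4.15 and 4.71 with PBS after transient antigen and at 8.98 and 7.15 with anti-CD40, the persistent levels being those above. Its difference of effects, persistent minus transient, was -4.41 ± 0.44 (SE, adjusted p = 5.3e-05 in limma with the block). Dscc1, which helps load the sliding clamp during replication, was at 7.15, 5.86 and 6.96 with PBS and at 6.74, 6.26 and 7.17 with anti-CD40 under persistent antigen. After transient antigen it was at 4.34, 3.44 and 3.70 with PBS and at 7.34 and 6.38 with anti-CD40, and the difference of effects was -3.07 ± 0.29 (adjusted p = 3.89e-05). These 2 genes, Emp1 and Cdc6 each passed in 18 of 19 alternatives, the exception being the model without the block.

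Emp1, an epithelial membrane protein, was at 7.47, 5.94 and 7.39 with PBS and at 7.35, 7.14 and 7.27 with anti-CD40 under persistent antigen, and its difference of effects was -3.37 ± 0.44 (adjusted p = 0.0012). Cdc6, which licenses replication origins, was at 8.33, 7.14 and 7.79 with PBS and at 8.46, 7.43 and 8.12 with anti-CD40 (-2.79 ± 0.41, adjusted p = 0.00297). After transient antigen with anti-CD40, Emp1 was at 7.06 and 6.18 and Cdc6 at 8.40 and 7.53. Il21 had a difference of effects of -2.98 ± 0.52 (adjusted p = 0.00873) and Ifitm3, an interferon-inducible membrane protein, of -3.25 ± 0.79 (adjusted p = 0.0386). Ifitm3 under persistent antigen was at 4.16, 4.28 and 7.86 with PBS and at 4.00, 5.75 and 7.45 with anti-CD40, a spread of its own, and it passed in 8 of the 19 alternatives. Of the 30 T cell genes 3 passed this test in limma with the block, against 1.79% of all genes. They were Gzmb, Il21 and Tbx21 (-1.71 ± 0.42, adjusted p = 0.0408). Without the block none passed, and Tbx21 was not followed over the other alternatives of this test.

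The 6 named genes whose effect was higher under persistent antigen had fallen with anti-CD40 after transient antigen. St8sia6, a sialyltransferase of naive T cells, was at 6.12, 5.74 and 6.02 with PBS and at 6.34, 5.74 and 5.57 with anti-CD40 under persistent antigen. After transient antigen it was at 8.49, 8.61 and 9.24 with PBS and at 6.17 and 6.79 with anti-CD40, and the difference of effects was 2.18 ± 0.36 (adjusted p = 0.00558). Ephx1, an epoxide hydrolase, had 1.91 ± 0.34 and Cd86, a costimulatory ligand of antigen-presenting cells, 1.88 ± 0.40. Lrig1, Abca1, a lipid exporter, and Tdrp followed at 1.78, 1.78 and 1.72. Cd86 was at 5.03, 4.83 and 4.65 with PBS and at 4.84, 4.73 and 4.57 with anti-CD40 under persistent antigen. After transient antigen it was at 6.41, 7.49 and 7.70 with PBS and at 5.12 and 5.33 with anti-CD40. For St8sia6, another probe set was nearly as bright on average over all arrays (7.56 against 7.64). It differed by -0.52 under persistent antigen, against -0.08 for the probe set used.

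Among the 28 lists, the share of genes with a lower persistent effect was highest for DNA replication. Of 38 DNA replication genes 30 had a lower effect under persistent antigen with the block, of 34 mitosis genes 18, of 17 annexin and S100 genes 6, of 18 cytotoxic granule genes 5 and of 20 G1 cyclin and CDK inhibitor genes 5, against 1.52% of all genes. Of 21 naive and recirculating T cell genes 4 had the higher effect, against 0.275%. Of 25 ribosome biogenesis genes 1 passed this test, of 20 chaperones 0 and of 33 type I interferon genes 0, against 1.79% of all genes. These counts are near that share and do not set the 3 lists apart. Ribosome biogenesis and chaperones had median differences of effects of -0.53 and -0.58. Their transient medians were 0.84 for both lists, beside persistent ones of 0.38 and 0.27. The type I interferon list had a transient median of -0.29. A p that misses the threshold does not show that these effects were alike. Plagl1 differed by 1.64 under persistent and 1.59 after transient antigen, and P2rx7 by -0.79 and -0.85, with differences of effects of 0.05 ± 0.48 and 0.07 ± 0.27. The interval of Plagl1 after transient antigen was 0.83 to 2.36 and that of P2rx7 was -1.28 to -0.43, and both passed there (adjusted p = 0.00673 and 0.00894 with the block).

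**Figure D4:**
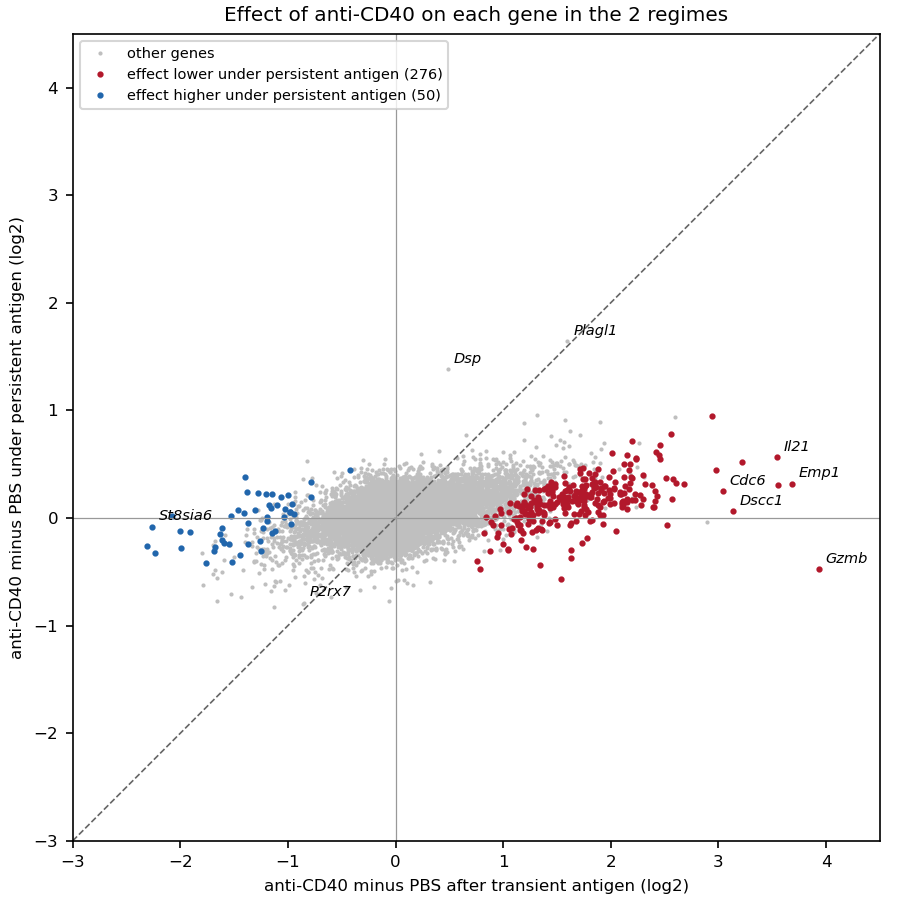
Difference between anti-CD40 and PBS in log2 for each of 18194 genes after transient antigen (horizontal) and under persistent antigen (vertical), from the model with the replicate block. Red and blue points are the 276 and 50 genes whose effect was lower or higher under persistent antigen, and the dashed line marks equal effects. The red and blue points lie along the horizontal axis, with median persistent differences of 0.16 and -0.01. They were chosen by the difference of the 2 plotted effects, so their distance from the dashed line follows from the choice. Plagl1 lies near the dashed line at 1.59 and 1.64.

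Against recipients without antigen, the effect of anti-CD40 under persistent antigen did not differ for any gene at an adjusted p below 0.05. The count was 0 without the block and 0 with it (0% called in both), with 157 (0.863%) and 667 genes (3.67%) at an unadjusted p below 0.05 in limma. The smallest p with the block included Ccl5, a chemokine of effector T cells, with an anti-CD40 difference of 0.09 under persistent antigen and 1.505 without antigen. The value without antigen, from 2 arrays with anti-CD40, passed by itself (adjusted p = 0.0319 in limma with the block). The difference of effects for Ccl5 was -1.42 and did not pass (adjusted p = 0.995). P2rx7, Hbegf, Dock3 and Apobec3 had differences of effects of -1.21, -1.02, -0.92 and -0.93, also with an adjusted p of 0.995. Recipients without antigen also lacked Ii-rTA, so genotype and antigen cannot be told apart in this comparison.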

How the data were processed

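RNA of sorted AND T cells was measured on 1 Affymetrix mouse array per sample. Per the labels' protocols it was extracted with Trizol and amplified in 2 rounds. The deposited values are linear intensities for 45101 probe sets, made by the authors with RMA per the submitters' processing notes; its version is not given in the sources used here. They were used as log2(intensity + 1), which shrinks differences of dim genes, with no further normalization. Of the probe sets, the list of gene names held 35890, 932 with several symbols and 34958 with 1, which gave 18194 genes; 9211 were not listed, 64 of all being array controls. A gene's values are those of whichever of its probe sets was brightest on average over the 16 arrays.

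The tests used limma 3.58.1 (R 4.3.3). A model of 6 group means held all 16 arrays, so that the groups share 1 estimate of the spread, with an intensity trend and no block. Two-sided p-values received the Benjamini-Hochberg adjustment across the 18194 genes, with a threshold of 0.05. A second model added the replicate number as a fixed block, which changes only the error of the persistent differences, where both groups hold all 3 numbers, and also moves the estimates of the transient effect and of the differences of effects. Pairing was checked from deviations from the group means: 36 pairs of arrays with the same number correlated at 0.48 to 0.81. The 70 pairs with different numbers had a median of -0.53. Deviations sum to 0 within a group, so this negative median follows from the positive values and is not separate evidence. By this check, and not by the labels, the numbers pair the arrays. The number of arrays limits the precision.

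Named genes are the 10 with the smallest p in each model where fewer than 6 passed, 32 T cell genes (30 analysed here), and for the difference of effects up to 6 of the largest in each direction, or 5 with the smallest p. Clone names, sex-linked genes and antigen receptor segments were not named. Genes named as extremes of a list were chosen after their values were seen. The comparison, the 38 lists (28 of T cell programs, 8 of cell types and 2 of RNA quality or sex) and the rules were chosen with earlier results of these data known. Alternatives were the block, blocks of consecutive array numbers, the 6 arrays alone, no trend, dim genes left out, mean of probe sets, cyclic loess, log2(intensity + 16), array weights and each array left out in turn. The models were tested on simulated data with 200 changed genes, all with a mean above the median probe set. Noise was drawn independently for each gene and array, with the spread of the model with the block. Recovery in dimmer genes or with noise shared between genes was not tested. Changes of 0.5 in log2 were recovered in 0% with or without the block. Changes of 1 were recovered in 14% without the block and in 83.5% with it, the latter with 15 false calls. The count of 0 genes under persistent antigen thus does not exclude small changes.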

Additional observations from a re-analysis of the deposited data

Results flagged for a closer look

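The effect of anti-CD40 differed between persistent and transient antigen for 326 genes in a test of the difference itself, with the replicate number as a block (limma, adjusted p below 0.05); without the block the count was 0. The genes named by rule that met this test had persistent minus transient effects of -4.41 for Gzmb, -3.37 for Emp1, -3.25 for Ifitm3, -3.07 for Dscc1, -2.98 for Il21 and -2.79 for Cdc6. In the other direction the values were 2.18 for St8sia6, 1.91 for Ephx1, 1.88 for Cd86, 1.78 for Lrig1, 1.78 for Abca1 and 1.72 for Tdrp. Over 19 alternatives the direction was kept by all 12, while the call was kept in 7 for Abca1, 8 each for Lrig1 and Ifitm3, 12 for Cd86, 14 for Tdrp, 15 each for Ephx1 and Il21, 17 for St8sia6, and 18 for the other 4.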

How the results depend on the processing

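For anti-CD40 under persistent antigen, 0 genes passed in each alternative without the block, with 50 (dim genes left out) to 1413 (array weights) at an unadjusted p below 0.05. With the replicate number as a block, the count was 1 (Plagl1) when only the 6 arrays were fitted, and 0 to 1 when arrays were left out. For the persistent minus transient effect, the unblocked count of 0 became 326 with the replicate block, 479 with blocks of array runs, 5 with array weights and 0 to 2 on leaving out arrays (2 without transient PBS replicate 2). The blocked count of 326, whose alternatives were added after seeing the data, became 0 without the block, 891 with array weights, 29 with replicates 1 and 2 only and 31 to 449 on leaving out arrays. The persistent minus no-antigen count was 0 in every alternative run. Cyclic loess moved the median of all genes from 0.02 to 0.0019. No direction of a called value reversed. Of the values for single genes under persistent antigen, 39 moved by more than the replicate spread, 814 did not and 1 became a call; for the list medians these were 26 and 278. Of 228 values for the 12 differences of effects, 60 lost the call. A group left with 1 array is assumed to vary like the others.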
